A study of Mus musculus with 4 samples.

Results

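Wide shared promoter domains were examined in mouse forelimb buds. These are autosomal stretches of accessible chromatin of 3000 to 10000 bp that were centred within 2.5 kb of the transcription start of a protein-coding gene at E9.5 and overlapped an accessible region at E10.5 by at least 1 bp. The assay was ATAC-seq, which relies on a transposase that inserts sequencing adapters where chromatin is open. Wild-type NMRI embryos were used without any allele or treatment, and 1 embryo gave both forelimb buds of each of the 2 biological replicates of a stage. The samples titled E9.5, which the protocol places slightly later, retained adjoining trunk, and the E10.5 samples are described without it. Stage and trunk tissue therefore cannot be told apart in any comparison below. One tissue label of the E10.5 samples adds hindlimb buds, while their source label and protocol mention forelimb buds alone. The lists hold no expression values, so the tissue was not checked against marker genes.

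The width at E9.5 chose the members, so it is described and not tested. The E9.5 list had 42613 regions, of which 29883 were shared with E10.5, and 13739 of the shared ones were autosomal and close to a coding start. Of the latter, called shared promoter regions here, 1051 (7.65%, 95% Wilson interval 7.22 to 8.11%) were wide domains, 12684 were narrower than 3000 bp and 4 were wider than 10000 bp. The domains made up 2.47% of the E9.5 list and held 7.13% of its bases. The authors merged the replicates of a stage into 1 list before deposit, so no value below has a replicate error and no difference between the stages was tested. All intervals are 95% intervals, cover counting error only, and treat neighbouring regions as independent. Sequencing depth is unknown.

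Promoters of active genes carry a stretch of DNA that is cleared of nucleosomes around the transcription start, where general factors and RNA polymerase assemble. In vertebrates this stretch usually lies in a CpG island, a run of DNA rich in CG dinucleotides that escapes methylation. Genes of developmental regulators often sit in particularly long islands, and in embryos their promoters can carry both activating and Polycomb-type histone marks. In the early limb bud, such regulators include homeodomain and zinc finger factors that lay out its axes, and the targets of the BMP, SHH, FGF and WNT signals that drive its outgrowth.

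The bases directly upstream of the start of 7 genes, chosen with their widths known, are shown because these genes carry the contrasts described below. Each line gives the 200 bases before the start in mm9, read 5' to 3' on the strand of the gene. Capitals mark matches, on either strand, to 5 motifs, the GC box GGGCGG, the CCAAT box, the TATA box TATAAA, the E-box CACGTG and the Pknox and Meis site TGACAG. The other 6 of the 11 motifs searched had no match here, namely the ETS site CCGGAAG, the NRF1 motif GCGCANGC, the CRE TGACGTCA, the AP-1 site TGANTCA and the SMAD motifs GGCGCC and GTCTAGAC. None of the matches printed here overlaps another. A match describes letters and not binding.
Hes1 (chr16:30064270-30064469, plus strand): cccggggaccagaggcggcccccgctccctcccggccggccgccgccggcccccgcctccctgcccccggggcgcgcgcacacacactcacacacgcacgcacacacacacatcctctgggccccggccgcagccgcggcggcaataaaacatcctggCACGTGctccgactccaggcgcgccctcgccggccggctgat
Id1 (chr2:152561787-152561986, plus strand): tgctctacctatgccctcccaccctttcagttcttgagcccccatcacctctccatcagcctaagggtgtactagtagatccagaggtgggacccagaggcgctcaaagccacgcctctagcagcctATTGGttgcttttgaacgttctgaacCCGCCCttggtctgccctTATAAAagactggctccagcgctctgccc
Id2 (chr12:25780958-25781157, minus strand): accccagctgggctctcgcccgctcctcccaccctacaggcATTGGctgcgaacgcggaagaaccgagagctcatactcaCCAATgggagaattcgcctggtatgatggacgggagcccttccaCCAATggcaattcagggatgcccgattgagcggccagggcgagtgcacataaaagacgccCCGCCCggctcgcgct
Jun (chr4:94718914-94719113, minus strand): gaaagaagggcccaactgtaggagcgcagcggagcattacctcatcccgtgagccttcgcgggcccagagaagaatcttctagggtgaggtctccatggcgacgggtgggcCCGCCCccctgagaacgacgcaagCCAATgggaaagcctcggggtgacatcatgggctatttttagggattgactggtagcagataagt
Junb (chr8:87502618-87502817, minus strand): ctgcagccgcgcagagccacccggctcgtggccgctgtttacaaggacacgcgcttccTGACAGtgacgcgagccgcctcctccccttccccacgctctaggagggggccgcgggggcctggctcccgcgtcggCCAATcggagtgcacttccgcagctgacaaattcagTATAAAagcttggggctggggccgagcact
Dusp6 (chr10:98725665-98725864, plus strand): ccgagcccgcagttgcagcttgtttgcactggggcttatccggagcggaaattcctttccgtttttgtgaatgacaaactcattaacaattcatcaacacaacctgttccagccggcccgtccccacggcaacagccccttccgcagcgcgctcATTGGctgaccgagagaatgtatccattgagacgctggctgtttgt
Hoxa7 (chr6:52168711-52168910, minus strand): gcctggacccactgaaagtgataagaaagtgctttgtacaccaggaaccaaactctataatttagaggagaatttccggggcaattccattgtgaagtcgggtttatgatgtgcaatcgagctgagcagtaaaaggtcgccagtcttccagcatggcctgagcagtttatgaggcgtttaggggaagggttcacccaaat
All 200 bases were accessible at both stages at 6 of these genes, and at Hoxa7 146 of the 200 bases were accessible at E10.5. The window at Hes1 had a GC content of 77.0%, and the one at Hoxa7 had 47.0% and no match to any motif. Id2 held 3 CCAAT boxes, against 1 at Id1, Jun, Junb and Dusp6. Over all shared promoter regions, windows of the same length held a GC box in 54.0%, a CCAAT box in 31.0%, an E-box in 7.05%, a TATA box in 4.59% and a Pknox and Meis site in 11.0%. The genes thus differ in their upstream letters although each start lies in a wide E9.5 domain.

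The widest domain lay at Hes1, a repressor that responds to Notch signalling. It spanned 9552 bp at E9.5 (chr16:30062009-30071560), from 2461 bp upstream to 7090 bp downstream of the start, and held the whole gene. At E10.5 it was covered by 3 regions of 5036, 1511 and 2071 bp, which together covered 90.2% of it. The next widest were at Ctdsp1, with 9174 bp, and at Meis2, a homeodomain factor of the proximal limb, with 8992 bp (chr2:115885280-115894271). At Meis2 the widest of 3 E10.5 regions had 4393 bp, and 92.6% of the domain was covered. Both Hes1 and Meis2 were therefore narrower by their largest E10.5 region but almost fully accessible in pieces.

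Domains without such breaks were also seen among the 10 widest. At Cwc22, a splicing factor gene, the E9.5 width of 8404 bp compared with 8392 bp at E10.5. The Cwc22 domain had a GC content of 43.3%, against a median of 57.4% for all domains, and scored 3100 at both stages. Copy number at this locus was not checked. At Nr2f1, an orphan nuclear receptor gene, 7518 bp compared with 8163 bp. In contrast, the domain of Midn had 8744 bp at E9.5 (chr10:79607552-79616295) and a single E10.5 partner of 4246 bp. The remaining members of the 10 widest were at Gm7120 (8029 bp), Crip2 (7790 bp), Zfp503 (7578 bp) and Mdk (7533 bp), with E10.5 partners of 5463, 2548, 3017 and 4814 bp. For these 10 domains the partner had 32.7 to 108.6% of the E9.5 width.

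**Figure D1:**
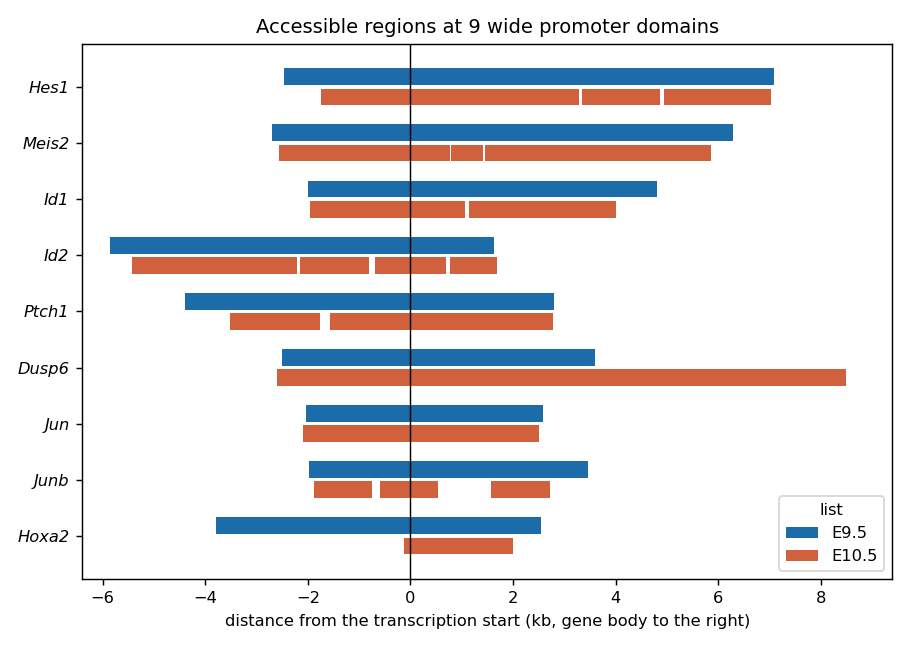
Accessible regions at 9 wide promoter domains, drawn by distance from the transcription start in kb with the gene body to the right. Each blue bar is the E9.5 domain and the orange bars are all overlapping E10.5 regions. Id2 was split into 4 E10.5 regions and Junb into 3, Jun had 1 of nearly the same width, and at Dusp6 the E10.5 region reached 8495 bp downstream.

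The E10.5 partner, taken as the region with the largest overlap, was compared with the domain. Domains had a median width of 3554 bp and their partners one of 2803 bp (2704 to 2876 bp). At E10.5, 429 domains (40.8%, 37.9 to 43.8%) had a partner of 3000 bp or more, against 3.94% of all shared promoter regions and 0.851% of the narrower ones. Shared promoter regions were narrower in the E10.5 list, with a median of 1416 bp against 1660 bp in the E9.5 list. An equal share of those of the E10.5 list was reached at 2569 bp. At that width 609 domains (57.9%, 54.9 to 60.9%) had a wide partner, against 3.96% of the narrower regions. By largest overlap each domain had an E10.5 partner of its own, although a partner could also reach into a second domain, as at Hoxa9.

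The partner had a median of 0.7552 of the domain width (0.7226 to 0.7867), and the ratio was 0.9169 (0.9138 to 0.9201) for the narrower regions. It was 0.8170 for domains of 3000 to 3500 bp, 0.7843 for 3500 to 4000 bp, 0.6609 for 4000 to 5000 bp and 0.6372 for wider ones. Just below the limit, at 2500 to 3000 bp, it was 0.8773. The ratio was thus lower in the wider classes of domains, although the intervals of neighbouring classes overlapped below 4000 bp and again above it. Choosing regions by their width at E9.5 in itself favours a narrower partner. Chosen the other way, 512 shared promoter regions had 3000 to 10000 bp at E10.5, and their E9.5 partner had 1.0195 of their width (1.0095 to 1.0271). Of these 512, 429 (83.8%, 80.3 to 86.7%) had an E9.5 partner of 3000 bp or more.

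The partner was wider than the domain in 119 cases (11.3%), within 10% of its width in 323 (30.7%) and under 50% of it in 244 (23.2%). Over all shared promoter regions the partner was wider in 23.9%, within 10% of the width in 44.6% and under 50% of it in 4.37%. Among the narrower regions these shares were 24.9, 45.8 and 2.79%. The narrowest partner relative to the domain was at H60b, which encodes a ligand of an immune cell receptor, with 674 bp against 4665 bp, or 14.4%. It was followed by Amh (17.2%), Meis3 (19.4%), Mex3d and Gse1 (19.8% each). All 5 had more than 4000 bp at E9.5 and partner scores of 99.36 to 209.36, against a median of 1392.83 over all partners.

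At the other end, the partner at Speer4d had 22146 bp, or 409.5% of the domain, and that at Gm10482 had 206.0%. Speer genes are a family of near-identical copies, so the placement of reads there is uncertain. Bcl11a (183.8%), Dusp6 (181.8%) and Lrig3 (144.6%) followed. Dusp6, which encodes a phosphatase induced by FGF signals that limits ERK activity, had 6103 bp (chr10:98723360-98729462) and a partner of 11098 bp. Its E10.5 region ran from 2602 bp upstream to 8495 bp downstream of the start and scored 3100, as did the domain. Bcl11a, a zinc finger factor gene, extended upstream instead, from 2081 bp at E9.5 to 5481 bp at E10.5.

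**Figure D2:**
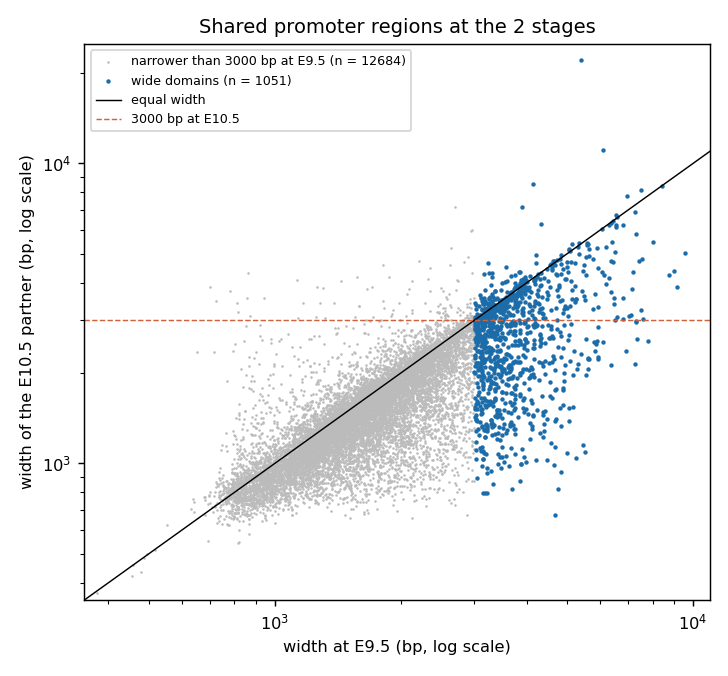
Width at E9.5 against the width of the E10.5 partner in bp, both on log scales, for 1051 wide domains (blue) and 12684 narrower shared promoter regions (grey). The black line marks equal width and the dashed line 3000 bp at E10.5. The domains lie mostly below the black line, with a median partner of 2803 bp, and 429 reach the dashed line.

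Just inside the lower limit lay domains at 4933406P04Rik and Wipi1 (3001 bp each), with partners of 2299 and 2598 bp. The regions just outside, at Cdc25a, Efnb3 and C1ql2, had 2999 bp each and partners of 1849, 2197 and 1119 bp. The widest domains, given above, ended below the upper limit, and beyond it lay Heatr7b1 (10085 bp), Bahcc1 (10691 bp) and 2610305D13Rik (12157 bp), with partners of 6933, 3007 and 5904 bp.

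A domain often met more than 1 E10.5 region. Exactly 1 was found in 778 domains, 2 in 243, 3 in 28 and 4 in 2, at Id2 and Ubtf. More than 1 was thus found in 273 domains (26.0%, 23.4 to 28.7%), against 1.37% (1.18 to 1.59%) of the narrower regions. The latter are shorter and so have less room for several, and the part of width in this difference was not tested. The gaps between the pieces were short, with a summed median of 276 bp (235 to 337 bp), and the middle of the largest gap lay at a median of 729 bp downstream of the start. In 193 of the 273 (70.7%) it lay downstream, and measuring from the most upstream start of the nearest gene favours that side. Of the domains with a partner under 3000 bp 37.5% had several pieces, and of those with a wider partner 9.32%. With all pieces summed, 547 domains (52.0%, 49.0 to 55.1%) reached 3000 bp at E10.5, against 4.91% of all shared promoter regions and 0.978% of the narrower ones.

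Coverage counts how much of the E9.5 domain was accessible at E10.5 in any region. Its median was 84.2% (82.3 to 85.6%) for domains and 90.8% (90.6 to 91.1%) for narrower regions. At least 80% was covered in 603 domains (57.4%) and in 75.9% of the narrower regions. Coverage was low at some domains with a narrow partner, as at H60b (14.4%), Meis3 (19.4%) and Midn (48.6%).

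The start of a region was here the most upstream start of the nearest gene inside it, or the nearest start where none lay inside. This choice in itself favours a longer downstream side. A coding start lay inside 99.4% of the domains and 88.9% of the narrower regions, so the latter were more often measured from an outside start. Measured this way, the domains were not centred on the start. They reached a median of 1482 bp upstream and 2177 bp downstream, and 737 (70.1%) extended further downstream than upstream, close to the 70.9% of the narrower regions. The partner reached 1107 bp upstream and 1619 bp downstream. Per domain, the median difference, E10.5 minus E9.5, was -147.0 bp upstream (-174.0 to -130.0 bp) and -285.0 bp downstream (-349.0 to -225.0 bp). The upstream edge lay nearer the start at E10.5 in 852 domains (81.1%) and the downstream edge in 866 (82.4%). The narrower regions differed in the same direction, with medians of -38.0 bp upstream and -64.0 bp downstream. The shares of edges nearer the start were not computed for them.

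The profile was drawn around the same start, so its asymmetry is not separate evidence. At 50 bp downstream of the start, 99.62% of the domains were accessible at E9.5 and 94.48% were at E10.5. At 1050 bp downstream the values were 95.91% and 77.45%, and at 950 bp upstream they were 79.26% and 63.65%. The narrower regions also had higher values downstream, with 41.41% and 30.27% at 1050 bp downstream and 23.79% and 18.50% at 950 bp upstream. More of them had no coding start inside, and the part of this in the difference from domains was not tested. Of these 3 positions, the stages differed least next to the start.

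**Figure D3:**
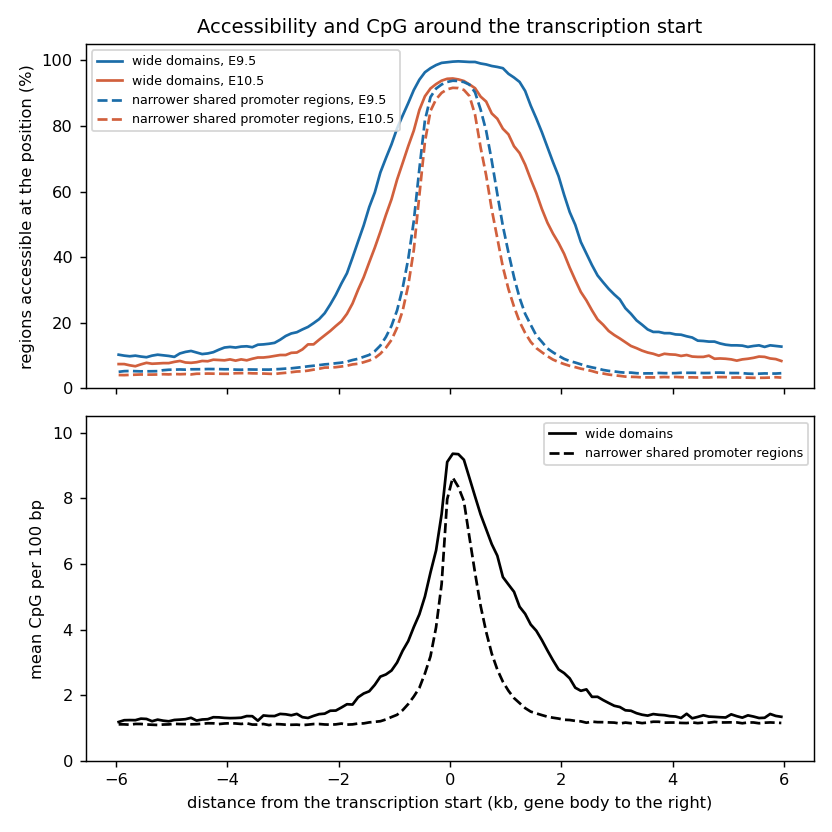
Upper panel, percentage of regions accessible at each distance from the transcription start (kb, gene body to the right) for wide domains (solid) and narrower shared promoter regions (dashed) at E9.5 (blue) and E10.5 (orange). Lower panel, mean CpG count per 100 bp at the same positions. At 1050 bp downstream, domains had 5.374 CpG per 100 bp and narrower regions 2.135.

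By annotation, 10.3% of the bases of the domains were coding sequence, 14.8% untranslated exon, 41.6% intron and 33.3% outside protein-coding genes. The narrower regions had 8.95, 16.1, 43.2 and 31.8%. Bases of the domains that were not accessible at E10.5 lay in introns in 49.6% and in untranslated exons in 10.9%, compared with 39.5% and 15.8% of those accessible at both stages. The narrower regions had the same order, with introns at 57.8% of the bases not accessible at E10.5 and 40.7% of the others.

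Domains held more starts than narrower regions. Starts of 2 or more coding genes lay in 140 domains (13.3%, 11.4 to 15.5%) and in 9.41% (8.91 to 9.93%) of the narrower regions, which are shorter and so have less room. Pairs of divergent starts within 1 kb were as frequent in both, with 7.42% and 7.51%. A start of a non-coding or other gene type lay in 14.8% of the domains and 6.95% of the narrower regions. The whole nearest gene lay inside 58 domains (5.52%), as for Hes1, Id1, Junb and Ier2. It did so in 1.20% of all shared promoter regions and 0.844% of the narrower ones, which again have less room. Of the 58 domains, 31 (53.4%, 40.8 to 65.7%) had a partner of 3000 bp or more, and of the other 993 domains 398 (40.1%, 37.1 to 43.2%). Of the shared promoter regions at coding genes shorter than 5000 bp 12.7% were domains, and of those at longer genes 7.03%.

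To describe the gene classes, each region was assigned to the coding gene with the nearest start, and 30 classes were defined by gene symbol. Classes overlap, since Hes1 for example counts as a bHLH factor and as a Notch target. Any class held 339 domains (32.3%). The other 67.7% of the domains lay in no class, against 85.1% of the narrower regions. The 8 families of developmental transcription factors had 496 shared promoter regions, of which 130 (26.2%, 22.5 to 30.3%) were domains, against a background of 7.65%. The 6 signalling classes had 64 of 255 (25.1%, 20.2 to 30.8%), and the regions in no class 712 of 11507 (6.19%, 5.76 to 6.64%). For the E10.5 partner, 13.5% of the regions of the transcription factor families and 14.9% of those of signalling genes had 3000 bp or more, against 3.94% of all.

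Within the transcription factor families the shares ranged widely. Domains made up 13 of 37 regions of Hox genes (35.1%), 6 of 18 of Sox genes (33.3%), 11 of 34 of forkhead genes (32.4%) and 33 of 103 of developmental zinc finger genes (32.0%). Lower shares were found for bHLH genes (15 of 64, 23.4%), other homeobox genes (38 of 166, 22.9%), nuclear receptors (12 of 58, 20.7%) and T-box genes (2 of 16, 12.5%). The intervals of these shares overlap, and that of the T-box genes (3.50 to 36.0%) includes the background. The widest domain was at Hoxc5 among Hox genes, at Sox9, the master gene of cartilage, with 4951 bp, at Foxp2 with 6493 bp, at Zfpm1 with 5304 bp and at Eomes with 4080 bp.

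**Figure D4:**
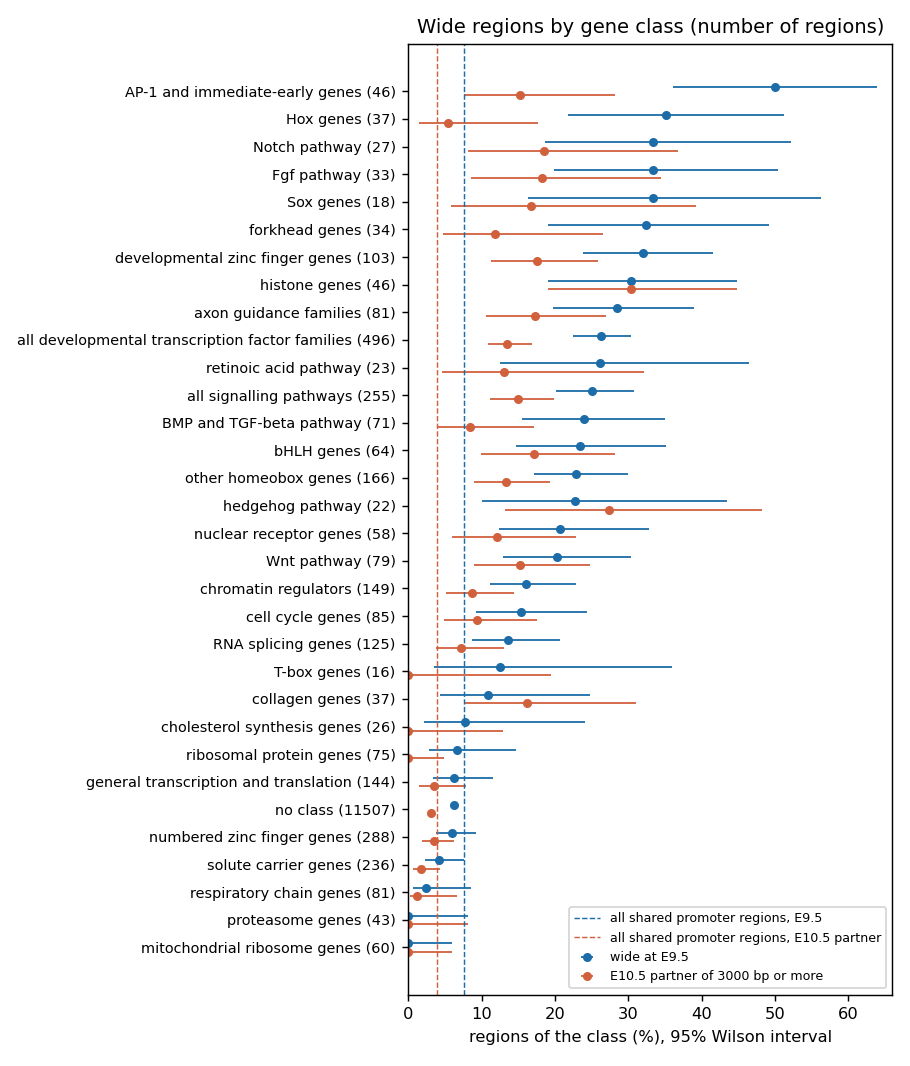
Percentage of the shared promoter regions of each gene class (number of regions in parentheses) that were wide at E9.5 (blue) and that had an E10.5 partner of 3000 bp or more (orange), with 95% Wilson intervals. Dashed lines mark the percentages over all shared promoter regions, 7.65 and 3.94. AP-1 and immediate-early genes had the highest blue point, histone genes the highest orange point.

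Hox genes encode homeodomain factors that set position along the body and limb axes, and lie in 4 clusters. Their 13 domains belonged to 11 genes and had 3086 to 7291 bp at E9.5, with scores of 182.09 to 2632.66, below the median of all domains except for Hoxc5. The widest lay at Hoxc5, with 7291 bp at E9.5 (chr15:102839431-102846721) and a partner of 2993 bp. Other wide ones lay at Hoxa2 (6345 bp, partner 2129 bp), Hoxd3 (5154 bp, 1539 bp) and Hoxb2 (4299 bp, 1265 bp). Each of these 4 partners had under 50% of the domain width, and they scored 164.26 to 1156.08.

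Over the 13 Hox domains the median partner had 0.336 of the width (0.294 to 0.663), against 0.7552 for all domains, and the median coverage was 55.7%. Only Hoxa7 and one Hoxa9 domain had a partner of 3000 bp or more (2 of 13, 15.4%, 4.33 to 42.2%), and their partners, of 3207 and 3414 bp, scored 734.02 and 1007.68. The wide partner of Hoxa9 covered 56.6% of its domain, since it reached beyond it on the upstream side, into a second Hoxa9 domain. That second domain had a largest-overlap partner of 1075 bp, or 31.5% of its width, and Hoxa5 had one of 1114 bp, or 28.6%. Hoxa3 and Hoxd3 are annotated over 44827 and 36346 bp, and one of the Hoxa3 domains also held a start of Hoxa6.

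Another domain lay within 50 kb of 153 domains (14.6%), and the same share was not computed for the narrower regions. The largest run was the HoxA cluster, with 9 domains on chromosome 6, of which 2 had an E10.5 partner of 3000 bp or more. A run of 5 domains around Thbs3, Mtx1, Trim46, Efna1 and Efna3 (chr3:89017310-89127504) had 0 with such a partner. The run of 4 at Hist1h2ai, Hist1h4j, Hist1h2ak and Hist1h2an (chr13:21805920-21880626) had 4 of 4.

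The AP-1 and immediate-early genes encode factors that are induced quickly by growth factors and stress. They had the highest share of domains of the 30 classes, with 23 of 46 regions (interval 36.1 to 63.9%), and 15.2% of their regions had an E10.5 partner of 3000 bp or more (7.57 to 28.2%). The partner was that wide in 7 of the 23 domains (30.4%), 13 were split into 2 or more E10.5 regions, and the median coverage was 78.5%. The genes named next were chosen after their values were seen. Jun had 4626 bp at E9.5 (chr4:94716319-94720944) and a partner of 4611 bp, with a score of 3100 at both stages. Its relative Junb had 5454 bp at E9.5 (chr8:87499149-87504602), and at E10.5 it had 3 regions of 1149, 1146 and 1129 bp with scores of 382.03, 424.76 and 469.72.

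By partner width relative to the domain, the other members of the class lay between these. Myc (5589 bp and 5414 bp), Cyr61 (6793 bp and 6220 bp) and Nr4a2 (4198 bp and 4144 bp) were nearly as wide at E10.5 as at E9.5. In contrast, Nr4a3 had 7359 bp and 2599 bp, Zfp36l1 7242 bp and 2148 bp, and Gadd45g 4888 bp and 1758 bp. Fos, the partner of Jun in the AP-1 dimer, had 3498 bp at E9.5 and a partner of 2212 bp, with 88.7% covered. Coverage in the class had another order, from 46.1% at Btg2 to 98.4% at Nr4a2, with 62.8% at Junb and 98.1% at Jun.

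Among the signalling pathways, the share of domains was 11 of 33 regions for Fgf (33.3%), 9 of 27 for Notch (33.3%), 6 of 23 for retinoic acid (26.1%), 17 of 71 for BMP and TGF-beta (23.9%), 5 of 22 for hedgehog (22.7%) and 16 of 79 for Wnt (20.3%). The lower bound of each interval exceeded the background of 7.65%. This describes the lists and is no test of enrichment, since width chose the domains and the classes were defined with earlier results known. The widest domains were at Dusp6, Hes1, Crabp2 (6117 bp, partner 4248 bp), Id2, Ptch1 and Fzd7 (5193 bp and 2367 bp). Crabp2 binds retinoic acid in the cytoplasm and Fzd7 is a Wnt receptor.

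The BMP and TGF-beta class held targets, SMADs, receptors, ligands and inhibitors. Its widest domains were at the direct BMP targets of the Id family, which sequester bHLH factors. Id2 had 7495 bp at E9.5 (chr12:25779327-25786821), reaching 5864 bp upstream of the start, and 4 E10.5 regions of 925, 1377, 1353 and 3233 bp covered 91.1% of it. Id1 had 6806 bp (chr2:152559984-152566789), which held the whole gene, and was covered to 86.4% by E10.5 regions of 3019 and 2862 bp. Id3 had 7310 bp and a largest partner of 2970 bp, with 79.4% covered. All 3 Id domains scored 3100 at E9.5, and their largest partners scored 957.72, 1920.44 and 482.83.

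Inhibitors and receptors of the class had other values. The inhibitory SMAD genes Smad7 and Smad6 had domains of 5558 bp and, at Smad6, of 3640 and 3397 bp, with partners of 2594, 2764 and 1209 bp. Fst, which encodes an activin antagonist, had 5558 bp and a largest partner of 1970 bp, with 91.9% covered by 3 regions. Grem1, the BMP antagonist of the limb bud, had 3449 bp and a partner of 2647 bp. The receptor genes Bmpr2 (3004 bp and 3069 bp), Tgfbr1 (3271 bp and 3003 bp) and Acvr2b (3389 bp and 2804 bp) were close in width at both stages. A partner of 3000 bp or more was found for 5 of the 17 domains (29.4%, 13.3 to 53.1%), at Id2, Id1, Skil, Tgfbr1 and Bmpr2.

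The hedgehog class had only 5 domains, of which 4 had a partner of 3000 bp or more (37.6 to 96.4%). Ptch1, the SHH receptor and a target of the pathway, had 7184 bp at E9.5 (chr13:63664032-63671215) and E10.5 regions of 4350 and 1749 bp. The Gli genes, which encode the transcription factors of the pathway, were Gli3 (3931 bp and 4092 bp), Gli2 (3492 bp and 3514 bp) and Gli1 (4426 bp and 2517 bp). Gas1, a coreceptor gene, had 4164 bp and 3357 bp. Over all shared promoter regions of the class, 27.3% (13.2 to 48.2%) had a partner of 3000 bp or more. The intervals of the 2 pathways, BMP and hedgehog, overlap.

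A list of 73 genes with known roles in early limb buds had 99 shared promoter regions, of which 32 (32.3%, 23.9 to 42.0%) were domains, at 29 genes. At E10.5, 21.2% (14.3 to 30.3%) of the regions had a partner of 3000 bp or more, and 14 of the 32 domains did. The 5 widest domains were at Meis2, Zfp503, Id2, Ptch1 and Id1. Over all 32 limb domains the median coverage was 85.2%. Jag1, a Notch ligand (4816 bp and 4805 bp), Fgf10, the FGF that starts limb outgrowth (3988 bp and 4091 bp), and Pkdcc (3970 bp and 3806 bp) had like widths at both stages. Prrx1, a marker of limb mesenchyme, had 4804 bp at E9.5 and 3 regions at E10.5 that covered 92.5%. Cyp26b1, which degrades retinoic acid, had 3757 bp and a largest partner of 1072 bp, and Lmx1b, a factor of dorsal limb mesenchyme, had 4693 bp and 1767 bp.

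Histone genes, which encode the proteins that package DNA, had the highest share of wide regions at E10.5. Domains made up 14 of their 46 regions (30.4%, 19.1 to 44.8%), and 14 of 46 also had a partner of 3000 bp or more, of which 11 were domains. The median coverage was 94.3%, and 12 of the 14 domains held the whole nearest gene. Hist1h2af lay in the widest, with 7283 bp at E9.5 (chr13:23621552-23628834), which also held Hist1h3g and Hist1h4h, and the E10.5 partner had 5832 bp. The partner scored higher than the domain in 9 of the 14 (64.3%), against 77 of all 1051 domains (7.33%). Scores of the 2 lists grow with depth, so this compares classes and not stages. Histone genes are near-identical copies, and uniquely placed reads may miss parts of them.

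Some other classes had shares near or under the background of 7.65%. There were 0 of 43 regions at proteasome genes, which allows a share of up to 6.98% if 3 counts are taken as the limit and 8.2% by the Wilson interval. At mitochondrial ribosome genes 0 of 60 were found, which allows 5% and 6.02% by the same rules. Respiratory chain genes had 2 of 81 (2.47%, 0.680 to 8.56%), numbered zinc finger genes 17 of 288 (5.90%, 3.72 to 9.25%) and general transcription and translation genes 9 of 144 (6.25%, 3.32 to 11.5%), with intervals that include the background. Solute carrier genes had 10 of 236 (4.24%, 2.32 to 7.62%). The 5 domains at ribosomal protein genes (of 75 regions, 6.67%, 2.88 to 14.7%) included those at Rpl36, Rpl27a, Rpl10a and Rps15a, and the 5 partners had 37.0 to 58.9% of the width. Chromatin regulators (24 of 149, 16.1%), cell cycle genes (13 of 85, 15.3%) and splicing genes (17 of 125, 13.6%) were above the background, with Brd2 (6363 bp), Ccnd2 (7275 bp) and Hnrnpl (3907 bp) the widest. Axon guidance families had 23 of 81 (28.4%), with the widest at Sema6a (5903 bp).

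**Figure D5:**
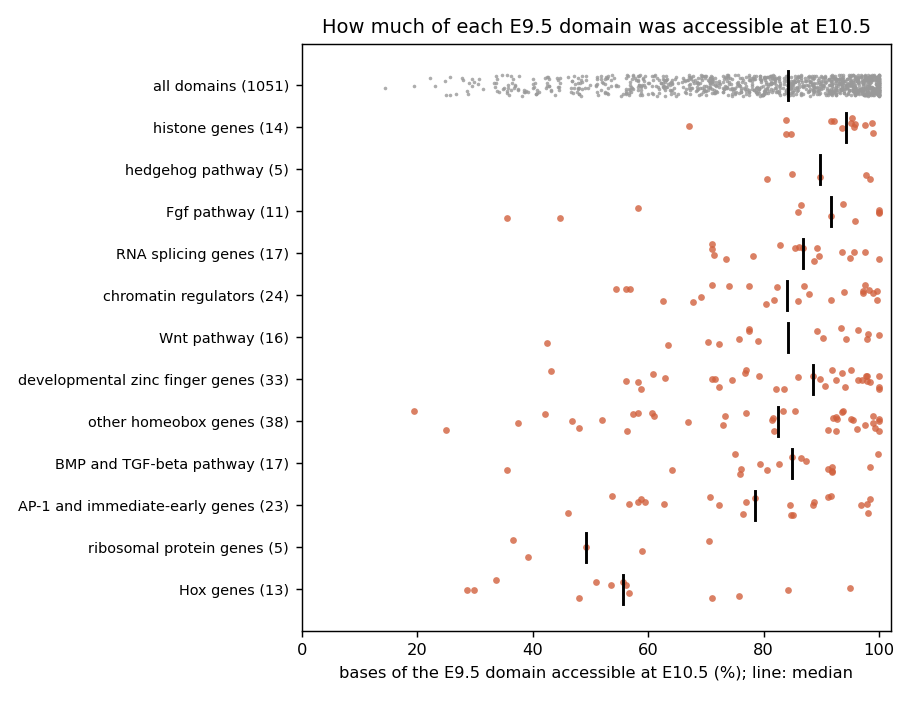
Percentage of the bases of each E9.5 domain that were accessible at E10.5, for all 1051 domains (grey) and 12 gene classes (orange, number of domains in parentheses), with the median as a black line. The median was 84.2% for all domains, 94.3% for histone genes, 55.7% for Hox genes and 49.3% for ribosomal protein genes.

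The sequence of the domains was rich in CG. Over the whole region the median GC content was 57.4% (57.1 to 57.8%), against 55.4% for narrower regions, and the observed over expected CpG ratio was 0.646 against 0.627. Close to the centre of the region the order was the opposite, with a GC content of 63.5% for domains and 64.8% for narrower regions. By distance from the start, domains had 9.361 CpG per 100 bp at 50 bp downstream and 5.374 at 1050 bp, and narrower regions had 8.633 and 2.135. At 950 bp upstream the values were 2.995 and 1.402. CpG density was thus higher in domains at all 3 positions. The narrower regions more often had no coding start inside, and the part of this in the difference was not tested.

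Of the 11 motifs, the GC box lay within 200 bp upstream of the start in 65.6% of the domains (62.6 to 68.4%) and 53.0% of the narrower regions (52.2 to 53.9%). The GC-rich SMAD site GGCGCC was found in 19.0% (16.8 to 21.5%) and 14.2% (13.6 to 14.8%). The ETS site CCGGAAG was less frequent in domains, with 4.76% (3.63 to 6.22%) against 10.4% (9.90 to 11.0%). The CCAAT box, with 30.9% and 31.0%, the E-box and the TATA box had overlapping intervals, and so did the NRF1 motif (11.9% and 13.4%). Over all shared promoter regions the shares were 54.0% for the GC box, 14.5% for GGCGCC, 9.99% for the ETS site, 13.3% for the NRF1 motif, 2.52% for the CRE, 2.91% for the AP-1 site and 0.146% for GTCTAGAC. A coding start lay inside 99.4% of the domains and 88.9% of the narrower regions. The matches are descriptions of letters, and the parts of GC content and of outside starts in them were not tested.

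The score of a region, 10 times the negative log10 of the best peak p-value, moved with width. Its median was 2471.65 for domains and 1004.14 for narrower regions at E9.5, and 336 domains (32.0%) scored 3100 or more, where scores pile up, against 3.53%. Below a score of 1000, 0.879% of the shared promoter regions were domains, and of those at 3100 or more 42.7%. Of the domains, 12.5% (6.19 to 23.6%) had a partner of 3000 bp or more below a score of 1000 and 66.7% (61.5 to 71.5%) at 3100 or more. Median scores differed among the classes, with 1331.03 for Hox domains, 2309.82 for histone domains, 2489.48 for immediate-early domains and 3070.53 for Fgf domains. The part of the score in the class differences was not tested.

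Base composition and chromosome moved with the partner as well. Of the 263 domains with the lowest GC content, 48.3% (42.3 to 54.3%) had a partner of 3000 bp or more, and of the 263 with the highest 34.2% (28.8 to 40.1%), with 37.0 and 43.7% between. By chromosome the share of domains among shared promoter regions ran from 6.11% on chromosome 9 to 9.71% on chromosome 10. The share of domains with a partner of 3000 bp or more ran from 24.0% (15.8 to 34.8%) on chromosome 11 to 68.8% (54.7 to 80.1%) on chromosome 13. Chromosome 13 holds the main histone cluster, and without histone genes it had 22 of 37 (59.5%, 43.5 to 73.7%). The part of GC content in the stage difference was not tested.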

How the data were processed

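ATAC-seq was performed on forelimb buds of 2 stages with 2 biological replicates each. The authors aligned reads to mm9 with Bowtie 1.1.0, keeping unique matches, called regions with MACS 1.4 without a named control, and combined replicates with MSPC (stringent p 1e-10, weak p 1e-06). Each deposited list gives region bounds in bp and a score, 10 times the negative log10 of the best p-value. Scores depend on depth, so those of the 2 lists are given side by side without a comparison of stages. The deposited files gave 1 list per stage, so no test was made, and depth is unknown.

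The GENCODE vM1 annotation (22380 protein-coding genes, 70064 transcription starts) and the NCBIM37 genome were used. The partner was the E10.5 region with the largest overlap. Extents and gaps were measured from the most upstream start of the nearest gene inside the region, or otherwise from the nearest start. Shares carry Wilson intervals and medians order-statistic intervals (95%). The code was tested on simulated data. Analyses used Python 3.11.15, pandas 2.3.3, numpy 2.4.6, scipy 1.17.1 and pysam 0.24.0.

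The members, gene classes and motifs were chosen with earlier results of these data known. Named genes were the 10 widest domains, the 5 narrowest and 5 widest partners relative to the domain, the widest domain of each class, the 3 regions on either side of each limit, and the 5 widest of the Hox and limb lists. Runs of neighbouring domains, the genes whose sequence is shown and further members of 6 classes (limb bud, immediate-early, BMP, hedgehog, histone and ribosomal) were chosen after their values were seen. Alternatives changed the overlap, width limits, promoter distance, score range and definitions. Some genes that this rule names are not reported here.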

Additional observations from a re-analysis of the deposited data

How the results depend on the processing

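No paired analysis was possible because replicates were merged into a single list per stage, and for the same reason no replicate could be left out. Of 60 alternative values, 41 stayed within the interval of the value given (or, for the number of domains, within 1.5 times it). The other 19 moved outside it.

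With a lower width limit of 2500 bp there were 2111 domains, 22.9% with a partner of 3000 bp or more, a median partner of 2476 bp and 9.52% at developmental transcription factor genes. With 4000 bp there were 306, and the values were 55.2%, 3186 bp, 21.2% and a GC content of 56.9%. A reciprocal overlap of at least 50% left 804 domains, of which 52.0% had a wide partner, and the median partner was 3044 bp. That rule in itself removes domains whose partner overlaps under 50% of them, so a higher share follows from it. Summing all partners gave 52.0% and 3048 bp. An E10.5 width matched by percentage gave 57.9%. Without regions scoring 3100 or more, the wide partner share was 28.7%, the median 2386 bp and the share with starts of 2 or more genes 11.0%. Over all domains, the share with starts of 2 or more genes was 26.4% when all gene types counted. GC content was 63.5% in a short window at the centre. Promoter distance, no upper limit, starts inside the region and the higher-scoring 50% of each list left every value within its interval. Shallow sequencing can shorten or split a region, and depth is unknown.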
